A study of Mus musculus with 36 samples.

Results

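The comparison described here is that of livers lacking dermatopontin (Dpt) with wild-type livers in mice that received only olive oil. Its members are 18 of the 36 libraries of the series, chosen by their titles, with 8 labelled wild type (WT) and 10 labelled knockout (KO). Per the labels, all were female C57BL/6 mice of 10 to 12 weeks. The KO animals were null for Dpt in the whole body, and the WT animals were their littermates. Both groups received oil under the skin for 8 weeks, in 3 doses of 0.1 ml/kg each week, and the liver was taken 24 hours after the last injection. The other 18 libraries, 9 WT and 9 KO, come from mice given carbon tetrachloride (CCl4), a solvent that injures hepatocytes, on the same schedule. Each library is 1 array, read as log2 signal for 23141 genes, and the labels do not say whether an animal gave more than 1 array. The p-values therefore measure the spread between libraries. The labels describe neither the targeted allele, nor the strain of the embryonic stem cells, nor the number of backcrosses.

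Dermatopontin is a small secreted protein of the extracellular matrix. It binds decorin, a proteoglycan that coats collagen fibrils, it takes part in fibril assembly, and it has been described to enhance the activity of transforming growth factor beta (TGF-beta). In the liver such matrix is made mainly by stellate cells and portal fibroblasts, which are few in a healthy organ. A mouse line made by gene targeting can keep a stretch of the stem cell strain's chromosome on either side of the targeted gene. Littermates of the other genotype carry the other chromosome there. Genes in such a stretch can differ in expression between strains, and an array probe can also bind less well to an RNA whose sequence differs from the probe's, at the same amount of RNA. Whether a stretch of another strain is present in these mice was not tested, since the arrays do not read the sequence.

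Some libraries went against their labels or stood apart. KO 10 read 7.40 for Dpt, against 3.07 to 3.87 in KO 1 to 9 (9 libraries). It also stood apart in many lists of genes. Its mean over 30 matrix genes was 7.03, where the WT libraries lay between 5.30 and 5.55 and KO 1 to 9 between 5.20 and 5.59. Its mean over 22 macrophage genes was 7.80 (5.24 to 5.65 in WT), over 12 skeletal muscle genes 6.30 (3.67 to 4.25 in WT), and over 19 genes of pericentral hepatocytes 6.63 (7.54 to 8.10 in WT). The counts of called genes and the called genes are therefore given for all 18 libraries and for the 17 without KO 10. Other values are for 17 libraries unless 18 are named. Y-linked genes were expressed in 6 libraries of these mice labelled female, WT 1, 2 and 3 and KO 1, 3 and 4. Their mean over 3 Y-linked genes was 6.09 to 6.40, against 2.48 to 3.06 in the other oil libraries, and their Xist was 2.94 to 4.45 against 9.29 to 9.83. The 16 core hepatocyte genes had a mean of 10.02 to 10.42 in all oil libraries. With 17 libraries, the median standard error (SE) of a difference was 0.10, and the 95% interval of the difference lay within 0.5 of 0 for 21613 genes (93.4%). With 18 it did so for 20867 genes (90.2%).

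Dpt was read first. In the 8 WT livers its lowest, median and highest values were 5.59, 5.96 and 6.48. In KO 1 to 9 they were 3.07, 3.59 and 3.87, so these groups did not overlap. KO 10, at 7.40, was above every WT library. Over all 18 libraries Dpt was lower in KO by 2.06 ± 0.40 (SE), which did not pass the test across all genes (limma, adjusted p = 0.0715). An exact two-sided permutation test over the libraries for this gene alone gave p = 0.000434 (19 of 43758 splits). Without KO 10 the difference was -2.45 (95% interval -2.71 to -2.19), a 5.46-fold lower signal, given as a description because KO 10 was set aside for its Dpt. All 5 probe sets of Dpt were lower in KO 1 to 9, by 1.40 to 3.89. The arrays give no zero level, so the signal left in KO cannot be read as remaining RNA.

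Few genes differed between the genotypes, and most of those lay close to Dpt on chromosome 1. With 18 libraries limma called 9 of 23141 genes at an adjusted p under 0.05, which is 0.0389% of the genes tested, with 2 higher (0.00864%) and 7 lower in KO (0.0302%). With 17 libraries it called 12 genes, or 0.0519%, with 3 higher (0.013%) and 9 lower (0.0389%). All 9 genes of the first set were among the 12 of the second, which added Kmo, Olfr1039 and Dpt, the gene for which KO 10 was left out. At an unadjusted p under 0.05 the counts were 1017 (4.39%) and 1059 genes (4.58%). Groups that did not overlap were found for 10 genes with 17 libraries (0.0432%), and 9 of these were called genes. With 18 libraries 7 genes did so (0.0302%). The exceptions among the called genes were Cenpl, Kmo and Olfr1039. Within the libraries that express Y-linked genes (3 WT, 3 KO) and within the rest (5 WT, 6 KO), all 12 genes had the same sign, where 48.9% of all genes had one sign in both. In 11 of the 12, all but Cenpl, WT and KO did not overlap in either class, against 0.0735% of all genes. The 12 genes were chosen on these same libraries, so their agreement between the classes is largely built in. For the 9 called genes whose groups did not overlap over the 17 libraries, both outcomes were fixed in advance. The shares of all genes are therefore no yardstick for these counts. Without the 6 libraries with Y-linked expression, but with KO 10, 5 genes no longer passed. They were Rgs5 (1.01, adjusted p = 0.29), Gas5 (-0.96, adjusted p = 0.586), Cenpl (-0.69, adjusted p = 0.376), Dusp12 (-0.64, adjusted p = 0.222) and Cfap126 (-0.54, adjusted p = 0.477). Without those 6 libraries and KO 10, 7 genes were called, 6 of them among the 12. With the Y-linked mean as a covariate in the 17 libraries, 14 genes were called, among them all 12.

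**Figure D1:**
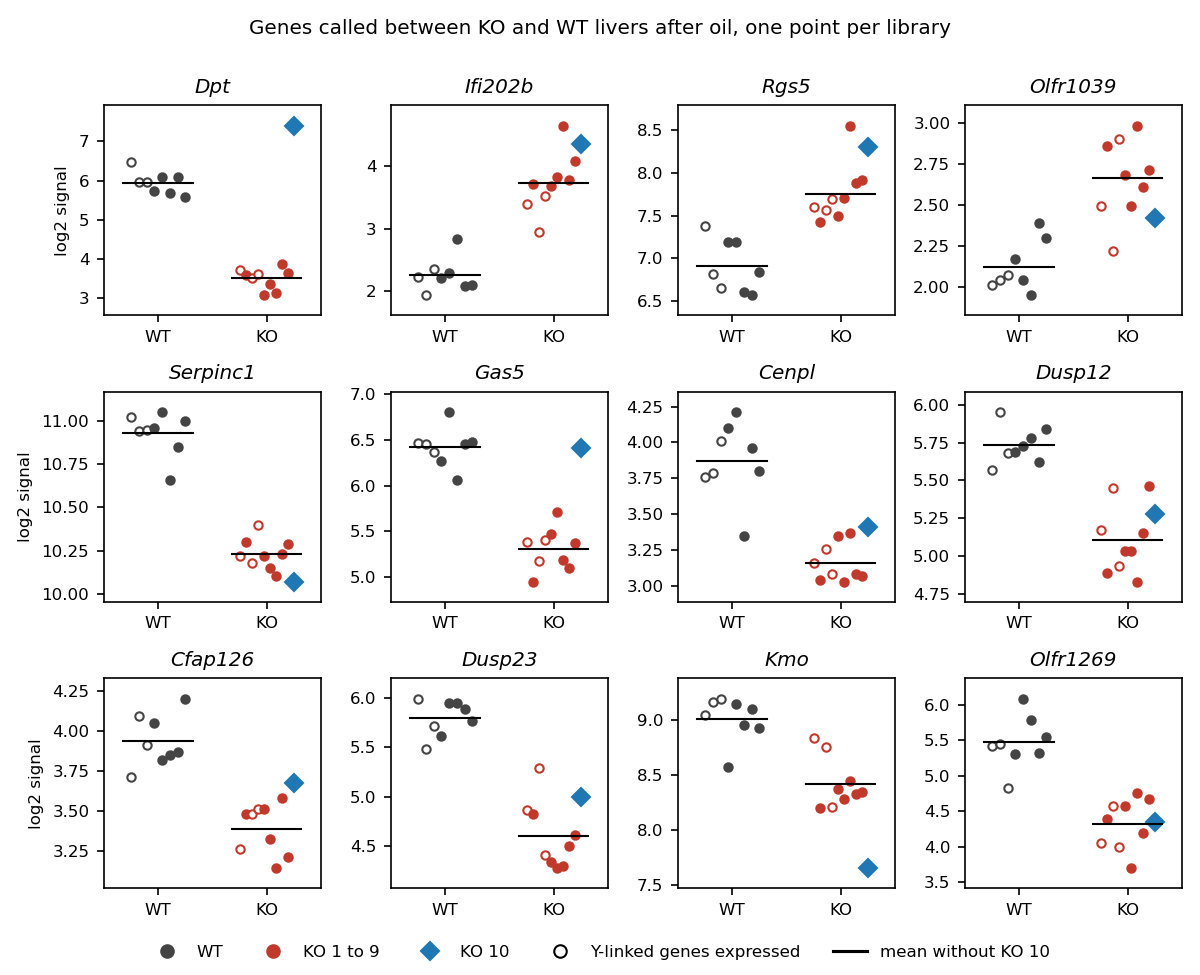
Log2 signal (y axis) of the 12 called genes in each oil library, with WT on the left and KO on the right of each panel. Open circles are libraries that express Y-linked genes, the blue diamond is KO 10, and the line is the mean of WT or of KO 1 to 9. KO 10 is far from the other KO libraries in Dpt (7.40) and Gas5 (6.41), and lies among or near them in Ifi202b (4.35) and Dusp23 (5.00).

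Positions were taken from RefSeq genes on assembly GRCm38.p6, as distances between gene midpoints. Within 20 Mb of Dpt the arrays measure 350 other genes, which is 1.51% of all genes tested. Of the 12 genes called with 17 libraries, 9 are among these 350, with Dpt itself and 2 olfactory receptor genes of chromosome 2 as the rest. With 18 libraries, 8 of 9 called genes are among the 350. At the looser limit of an unadjusted p under 0.001, which 36 genes passed with 17 libraries (0.156%), 23 of the 36 are among them, 18 lower and 5 higher in KO. The differences were not spread evenly over this stretch. At a distance of 5 to 10 Mb 17 of 148 genes (11.5%) passed that limit. All 17 were among the 115 genes after Dpt, and 0 of the 33 before it passed. From 0 to 5 Mb 5 of 88 did (5.68%), 3 before Dpt and 2 after it. From 10 to 15 Mb 1 of 66 genes passed (1.52%), from 15 to 30 Mb none of 48 and 141 genes did, and farther out on the same chromosome 1 of 813 did (0.123%). On other chromosomes 11 of 21764 genes passed (0.0505%).

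The nearest neighbours of Dpt were not among the called genes of either fit. Between Cenpl, 3.73 Mb before Dpt, and Rgs5, 4.87 Mb after it, 72 other genes were measured, and 0 of them were called by limma with 17 libraries. Of these, 7 had an unadjusted p under 0.05, and their differences ran from -0.27 to 0.64. The highest was that of Fmo4, a flavin-containing monooxygenase 2.01 Mb before Dpt (0.64 ± 0.18, adjusted p = 0.771). With the Y-linked mean as a covariate Fmo4 passed (0.60, adjusted p = 0.0287), and with the brightest probe set of each gene Klhl20, 3.70 Mb before Dpt, did (-0.84, adjusted p = 0.0107). The 81 genes of the window that lie before Serpinc1 also had 0 calls, with 3 at an unadjusted p under 0.05. The called genes before Dpt were a close group of 3, Serpinc1, Gas5 and Cenpl at -3.82, -3.77 and -3.73 Mb. Those after Dpt were Rgs5, Dusp12 (6.07 Mb), Cfap126 (6.31 Mb), Dusp23 (7.82 Mb), Ifi202b (9.16 Mb) and Kmo (10.84 Mb).

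**Figure D2:**
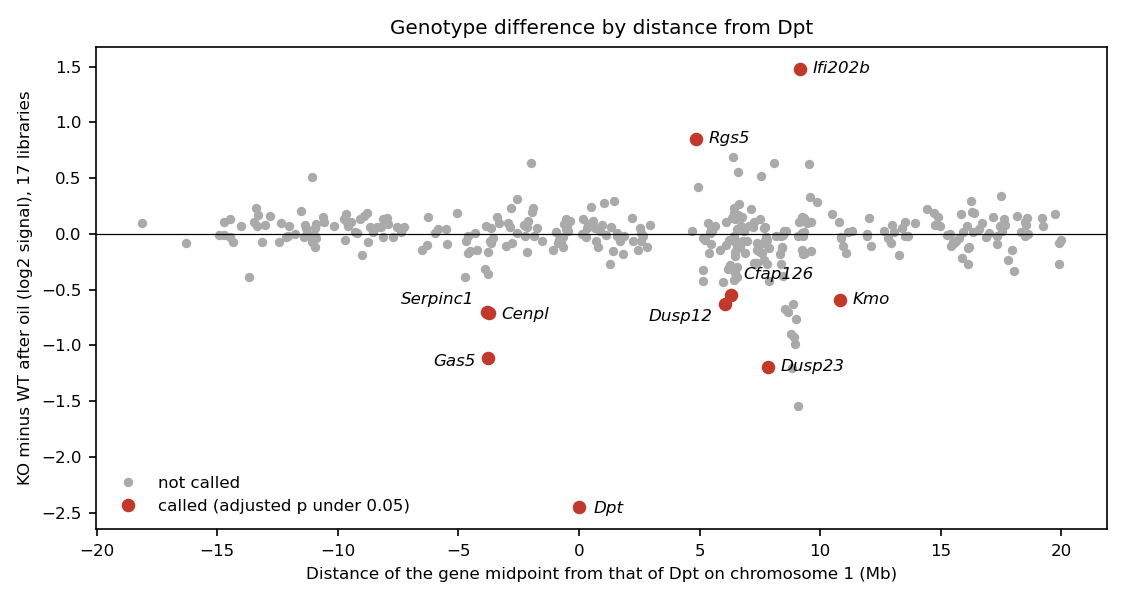
Difference in log2 signal, KO minus WT after oil with 17 libraries (y axis), of each gene within 20 Mb of Dpt, against the distance of its midpoint from that of Dpt in Mb (x axis). Red points are called genes and grey points are not called. The called genes besides Dpt lie between -3.82 and 10.84 Mb, and 0 are called before Serpinc1 at -3.82 Mb.

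The gene with the largest rise was Ifi202b, a member of the Ifi200 family. These interferon-inducible proteins bind DNA in the nucleus or cytosol, and the family includes Aim2, a DNA sensor that starts an inflammasome. Ifi202b is known to differ in expression between inbred mouse strains. Its values in WT were 1.93, 2.21 and 2.83 (lowest, median, highest), and in KO 1 to 9 they were 2.94, 3.71 and 4.65. The groups were apart, and KO 10 (4.35) fell inside the KO range. Ifi202b was higher in KO by 1.48 ± 0.17, a 2.80-fold difference (limma, adjusted p = 6.21e-05), and by 1.55 ± 0.17 with 18 libraries (adjusted p = 9.6e-05). All 8 of its probe sets were higher in KO, from 0.12 to 2.84.

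The other family members did not follow Ifi202b. The 11 measured genes of the list all lie within 20 Mb of Dpt, and Ifi202b is the only one called in either fit. An unadjusted p under 0.05 was reached by 8 of the 11 (72.7%, against 4.58% of all genes), and the median difference was -0.70 against 0.00 for all genes. The following members were named after their values were seen. Ifi209 was lower in KO by 1.20 ± 0.23 (adjusted p = 0.0724), from a mean of 4.42 in WT to 3.21. Ifi207 differed by -0.92 ± 0.19 (adjusted p = 0.11), and Ifi213 by -0.90 ± 0.19 (adjusted p = 0.13). With 18 libraries these were -1.04 (adjusted p = 0.837), -0.73 (adjusted p = 0.967) and -0.87 (adjusted p = 0.207). Under other settings some of them passed, all lower in KO. With array weights Ifi209 gave -1.29 (adjusted p = 0.00437), Ifi207 -1.01 (adjusted p = 0.0219) and Ifi213 -0.98 (adjusted p = 0.0345). Single libraries also decided them. Ifi209 passed without WT 2 (-1.32, adjusted p = 0.0258) or KO 7 (-1.39, adjusted p = 0.000511), Ifi207 without KO 7 (-1.03, adjusted p = 0.0146) and Ifi213 without KO 3 (-1.01, adjusted p = 0.0231). Aim2, Ifi203 and Ifi205 differed by 0.03, 0.11 and 0.12. A single probe set of Aim2 was called lower in KO, at -2.07 ± 0.30 (limma over probe sets, adjusted p = 0.0184). With 18 libraries it did not pass (-1.74, adjusted p = 0.666). The differences of the 11 genes ran from -1.54 to 1.48. The genes of this family are near copies of one another, so signal may be shared between them, and the values of single members are uncertain. In KO 10 Ifi204, Ifi207 and Ifi209 read 4.89, 5.76 and 4.82, above the WT means of 3.32, 4.73 and 4.42. Ifi213, Ifi206 and Ifi208 read 2.73, 3.02 and 2.12 there, below the WT means of 3.27, 3.39 and 2.82.

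Plasma proteins made by hepatocytes were among the genes near Dpt. Serpinc1 encodes antithrombin, the main inhibitor of thrombin in blood. It read 10.66, 10.95 and 11.05 in WT and 10.10, 10.22 and 10.40 in KO 1 to 9, with KO 10 at 10.07. The groups did not overlap with or without KO 10, and the difference was -0.70 ± 0.07 (limma, adjusted p = 1.04e-05), or -0.71 ± 0.07 with 18 libraries (adjusted p = 1.57e-05). The call ended when a gene was represented by the median of its probe sets (-0.19, adjusted p = 0.977) or by its brightest probe set (-0.04, adjusted p = 0.963), both with 18 libraries. It also ended when all 36 libraries shared 1 estimate of the spread (-0.71).

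Apcs and Crp, the genes of the pentraxins serum amyloid P and C-reactive protein, did not pass the test. Apcs was 7.84, 8.25 and 8.43 in WT and 8.15, 8.90 and 9.23 in KO 1 to 9, an overlap, with a difference of 0.64 ± 0.13 (adjusted p = 0.11). With 18 libraries it passed when KO 7 was left out (0.79, adjusted p = 0.0108). Crp differed by -0.42 ± 0.08 (adjusted p = 0.075), and with 18 libraries it passed without KO 2 (-0.48, adjusted p = 0.0225). In the mouse, serum amyloid P rather than C-reactive protein is the strong acute-phase pentraxin. Of the 25 acute-phase genes of the list, 0 were called by limma in either fit, and the median difference was -0.05. An unadjusted p under 0.05 was found for 3 of them (12.0%, against 4.58% of all genes). Apoa2, which encodes a major protein of high-density lipoprotein and was named after its values were seen, differed by -0.41 ± 0.09 (adjusted p = 0.305). It has 5 probe sets, of which 1 was called on its own at -1.45. With the median of its probe sets Apoa2 passed at the same -1.45 (limma, adjusted p = 0.000314), and at -1.34 with 18 libraries (adjusted p = 0.00779).

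Gas5 and Cenpl lie beside Serpinc1. Gas5 is a long noncoding RNA whose introns hold small nucleolar RNAs. It was 6.06, 6.45 and 6.80 in WT and 4.95, 5.37 and 5.71 in KO 1 to 9. These groups were apart, but KO 10 read 6.41, inside the WT range. The difference was -1.11 ± 0.10, a 2.16-fold lower signal (limma, adjusted p = 6.23e-06), and -1.0 ± 0.15 with 18 libraries (adjusted p = 0.00368). With the brightest probe set it was 0.01 (18 libraries). Cenpl, a protein of the centromere, was 3.35, 3.88 and 4.21 in WT and 3.03, 3.08 and 3.37 in KO 1 to 9. Of these 9 KO libraries 7 were below every WT library. Its difference was -0.71 ± 0.10 (limma, adjusted p = 0.00144), and -0.69 ± 0.10 with 18 libraries (adjusted p = 0.00331). With the brightest probe set it did not pass (-0.89, adjusted p = 0.217, 18 libraries).

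Dusp23 and Dusp12 both encode dual-specificity phosphatases, enzymes that can remove phosphate from tyrosine and from serine or threonine. Dusp23 was 5.48, 5.83 and 5.99 in WT and 4.28, 4.50 and 5.29 in KO 1 to 9, with KO 10 at 5.00. It was lower in KO by 1.19 ± 0.12, a 2.28-fold difference (limma, adjusted p = 2.22e-05), and by 1.15 ± 0.13 with 18 libraries (adjusted p = 9.6e-05). Dusp12 was 5.57, 5.71 and 5.95 in WT and 4.83, 5.03 and 5.46 in KO 1 to 9, and its difference was -0.63 ± 0.09 (adjusted p = 0.00298), or -0.61 ± 0.09 with 18 libraries (adjusted p = 0.00408). In both genes WT and KO did not overlap, with KO 10 included. With the brightest probe set and 18 libraries neither passed, at -1.18 for Dusp23 (adjusted p = 0.0783) and -0.21 for Dusp12 (adjusted p = 0.922). Cfap126, a gene linked to cilia, was 3.71, 3.89 and 4.20 in WT and 3.14, 3.48 and 3.58 in KO 1 to 9, and was lower by 0.55 ± 0.08 (adjusted p = 0.00449). KO 10, at 3.67, was between both groups. With 18 libraries the difference was -0.52 ± 0.09 (adjusted p = 0.0121), and with the median of probe sets it did not pass (-0.62, adjusted p = 0.128).

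Rgs5 encodes a GTPase-activating protein that shortens signalling by G proteins, and it is a marker of pericytes and, in the list used here, of stellate cells. It was 6.57, 6.83 and 7.38 in WT and 7.42, 7.69 and 8.55 in KO 1 to 9, with KO 10 at 8.30. The groups did not overlap, though the highest WT and the lowest KO library were close. Rgs5 was higher in KO by 0.85 ± 0.14, a 1.80-fold difference (limma, adjusted p = 0.0151), and by 0.90 ± 0.15 with 18 libraries (adjusted p = 0.0121). None of the other 18 stellate cell genes was called, and the median of the list was -0.02. In bulk tissue more cells of a type and more RNA per cell cannot be told apart. Rgs4, from the same family and the same stretch, did not pass the test (0.42 ± 0.11, adjusted p = 0.618), nor did the potassium channel gene Kcnj10 (0.52 ± 0.12, adjusted p = 0.37). With 18 libraries Kcnj10 passed without KO 4 (0.62, adjusted p = 0.00819).

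Kmo encodes kynurenine 3-monooxygenase, an enzyme of tryptophan breakdown that is abundant in liver. It was 8.57, 9.07 and 9.19 in WT and 8.20, 8.34 and 8.83 in KO 1 to 9. The groups overlapped, since WT 4 read 8.57, although 7 of the 9 KO libraries were below every WT library. The difference was -0.59 ± 0.10 without KO 10 (limma, adjusted p = 0.0208). With KO 10, which read 7.65, it was -0.67 ± 0.12 and did not pass (adjusted p = 0.0543). Without WT 4 but with KO 10 it passed (-0.73, adjusted p = 0.018), as it did without KO 1 or KO 3 (both -0.72).

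Both called genes on other chromosomes are olfactory receptors of chromosome 2 with 1 probe set each. Olfr1269 was 4.83, 5.43 and 6.08 in WT and 3.70, 4.39 and 4.76 in KO 1 to 9. The groups were apart, and it was lower in KO by 1.14 ± 0.16 (limma, adjusted p = 0.00144), or 0.00146 with 18 libraries at the same difference. Olfr1039 was 1.95, 2.06 and 2.39 in WT and 2.22, 2.68 and 2.98 in KO 1 to 9, with 8 of 9 KO libraries above every WT library. Its difference was 0.54 ± 0.10 without KO 10 (adjusted p = 0.0378) and 0.51 with it (adjusted p = 0.0649). With KO 10 kept, it passed without WT 7 (adjusted p = 0.0464) or KO 3 (adjusted p = 0.0158). Such receptors act in the nose, and a single probe set for each leaves their level in liver uncertain. The signal of Olfr1039 was also low, below the oil array medians of 4.11 to 4.29, while Olfr1269 in WT was above them.

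The single probe sets of the called genes differed in how evenly they moved. The arrays hold several probe sets for most genes, each for a short part of the gene, and the test was repeated on all 233753 of them after the gene results were known. With 17 libraries 42 probe sets of 30 genes were called (0.018%), 13 higher and 29 lower in KO. Of these 42, 34 (81.0%) lie within 20 Mb of Dpt, where 3710 probe sets were measured, and 3 belong to Dpt. With 18 libraries 24 were called (0.0103%), 19 of them in that window.

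In Serpinc1 most of the difference came from 1 probe set, and in Gas5 and Kmo part of it did. In Serpinc1 all 9 probe sets were lower in KO, but 1 fell by 4.78 and the other 8 had a mean difference of -0.18. That probe set read 5.15 to 7.33 in WT, 1.49 to 2.52 in KO 1 to 9 and 4.10 in KO 10. In Gas5 the leading probe set of 14 fell by 5.97, from a mean of 8.77 to 2.80, and read 8.14 in KO 10. A further Gas5 probe set fell by 2.52, and without the leading one the mean was -0.74. In Kmo 3 of 19 probe sets were called, the leading one at -3.23, and the rest had a mean of -0.45. In other genes the difference was spread over more of the probe sets. Of the 8 probe sets of Ifi202b 4 were called, at most by 2.84, with a mean of 1.29 without that one. All 10 probe sets of Rgs5 were higher (mean 0.79 without the leading one) and all 4 of Dusp23 were lower (mean -1.04 without it). In Dusp12 none of 12 probe sets was called singly, and 11 were lower. In Cfap126 10 of 12 probe sets were lower, with differences from -1.81 to 0.40. In Cenpl 9 of 11 were lower, with differences from -1.46 to 0.17.

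**Figure D3:**
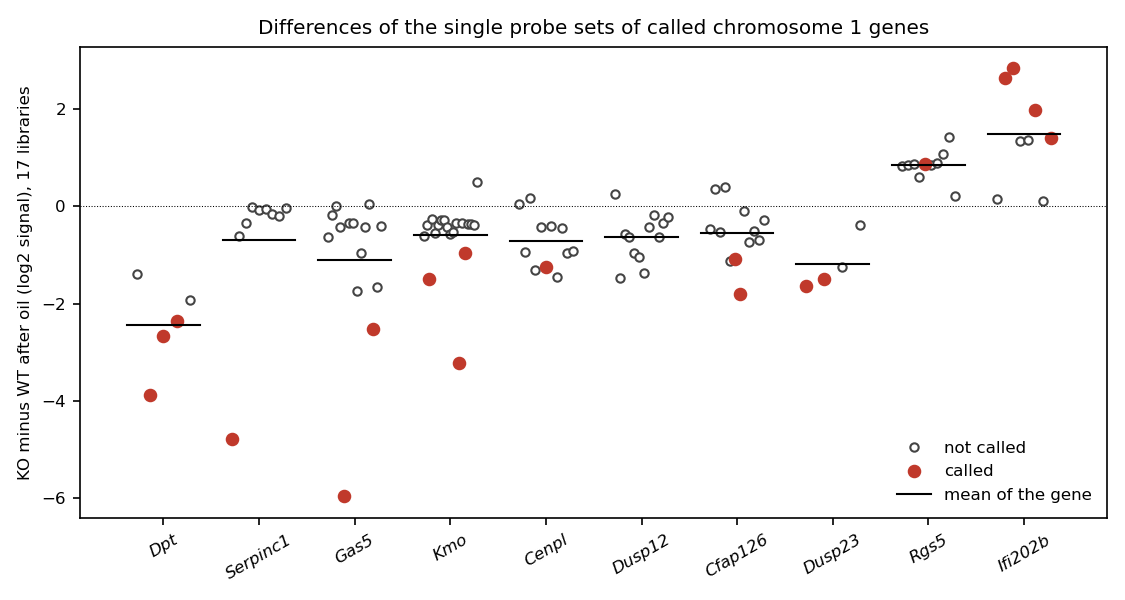
Difference in log2 signal, KO minus WT after oil with 17 libraries (y axis), of every probe set of the 10 called genes of chromosome 1 (x axis). Red points are probe sets called among all probe sets, open points are not called, and the line is the mean over the gene. In Serpinc1 and Gas5 single points lie at -4.78 and -5.97, far below the rest of their gene. In Ifi202b 4 of 8 points are called and in Dusp23 2 of 4.

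Genes with a called probe set but no call as a gene were named after their values were seen. Most lie in the same stretch. Klhl20, 3.70 Mb before Dpt, had a probe set at -2.92 ± 0.35 (limma, adjusted p = 0.00184, or 0.0106 with 18 libraries). Copa and Ncstn, 7.29 and 7.26 Mb after Dpt, encode a subunit of the COPI vesicle coat and the gamma-secretase subunit nicastrin. Their probe sets were lower by 2.75 and 2.21, with another of Copa lower by 2.24. A probe set of Fcgr2b, the inhibitory Fc receptor of sinusoidal endothelium and B cells, was lower by 2.07 ± 0.24 (adjusted p = 0.00174), although the gene differed by -0.31 ± 0.11 (adjusted p = 0.96). With the median of its probe sets Fcgr2b passed (limma, -1.07, adjusted p = 0.000251, and -0.95, adjusted p = 0.0312 with 18 libraries). A probe set of Apcs was higher by 1.49 ± 0.17 (adjusted p = 0.00174). Outside the stretch 8 probe sets were called. Among them a probe set of Adgrl4, an adhesion receptor of endothelium on chromosome 3, was higher by 1.74 ± 0.19 (adjusted p = 0.000568), and one of Celsr3 on chromosome 9 was lower by 3.65 ± 0.57 (adjusted p = 0.0331). With 18 libraries the probe sets of Klhl20, Apcs (adjusted p = 0.00103) and Adgrl4 (adjusted p = 0.000525) also passed. Those of Fcgr2b (adjusted p = 0.0683), Copa (0.154 and 0.0748), Ncstn (0.229) and Celsr3 (0.0683) did not.

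KO 10 was set against both groups on these genes. On the 12 called genes it was nearer the mean of KO 1 to 9 for 9 and nearer the WT mean for Dpt, Gas5 and Cfap126. In this count genotype and injury cannot be told apart for every gene. Libraries labelled WT CCl4 2 to 9 read 7.63 to 8.75 for Rgs5, nearer the KO oil mean (7.76) than the WT one (6.91). For Serpinc1 and Kmo they read 6.47 to 10.61 and 5.87 to 8.77, against KO oil means of 10.23 and 8.41. For Ifi202b (2.06 to 2.44) and Dusp23 (5.33 to 6.12) they were nearer the WT oil means (2.25 and 5.79). On the 31 called probe sets near Dpt but outside it, which were chosen without KO 10, KO 10 was nearer the KO mean in 16. Its median place was 50% of the way from the WT to the KO mean. The 8 libraries labelled WT CCl4 2 to 9 were nearer the KO mean in 2 to 10 of the 31, with median places of 0% to 16%. The library labelled WT CCl4 1, whose Dpt was 3.18, was nearer the KO mean in 31 of 31 (116%). Among the libraries labelled KO CCl4, 7 were nearer the KO mean in 27 to 30, and KO CCl4 8 and 9 in 16 and 18 (52% and 68%). KO 10 was thus close to KO CCl4 8 and 9 in this count. In its list means KO 10 lay within the range of WT CCl4 2 to 9 for matrix (7.03, against 6.42 to 7.19), pericentral (6.63, against 5.58 to 7.38) and bile acid genes (7.20, against 4.66 to 7.81). WT CCl4 1 lay outside those ranges at 5.81, 8.12 and 8.49, near the WT oil ranges of 5.30 to 5.55, 7.54 to 8.10 and 8.50 to 8.76. For matrix and pericentral genes the place of KO 10 rested on WT CCl4 3, which read 7.19 and 5.58. Without that library the ranges ended at 6.79 and 6.64, short of KO 10. KO 10 was above WT CCl4 2 to 9 in other lists, such as binding partners of dermatopontin (9.43, against 8.61 to 9.12). Stellate cell genes were another (7.01, against 6.29 to 6.74). KO CCl4 libraries ranged from 6.55 to 7.92 for matrix, 8.78 to 9.49 for binding partners and 6.11 to 6.92 for stellate cell genes. Nothing in the labels sets the named libraries apart. Whether the labels of KO 10 and WT CCl4 1 were mistaken or exchanged was not tested.

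**Figure D4:**
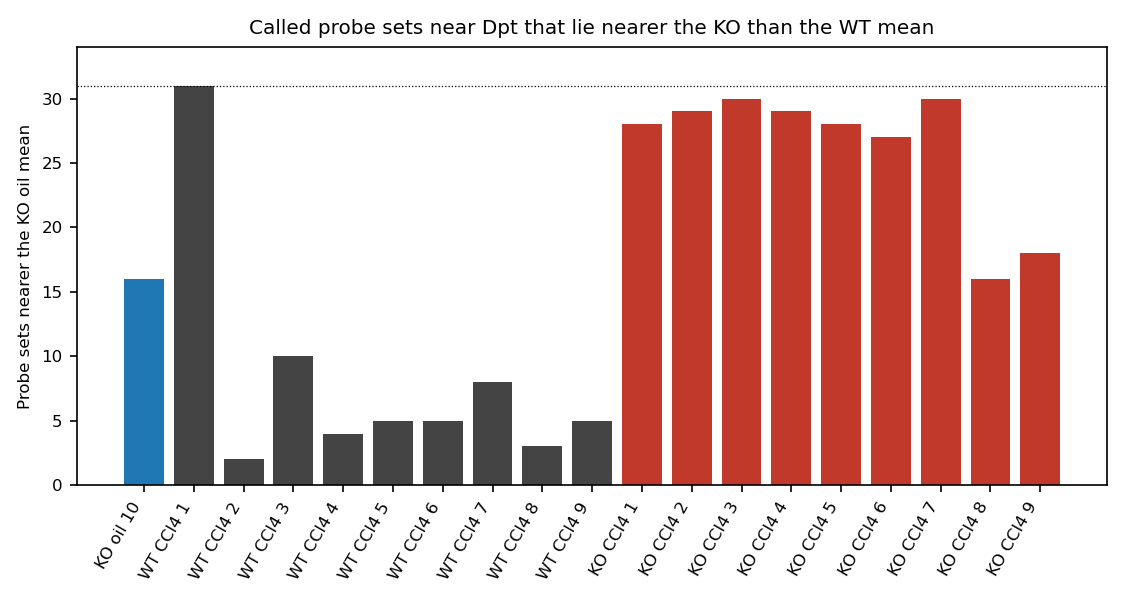
Number of the 31 called probe sets near Dpt, Dpt left out, on which a library was nearer the mean of KO 1 to 9 after oil than the mean of WT after oil (y axis), for libraries not used to choose them (x axis). The dotted line marks all 31. The library labelled WT CCl4 1 reaches 31, the other WT CCl4 libraries 2 to 10, KO 10 after oil 16, and KO CCl4 8 and 9 reach 16 and 18 where the other KO CCl4 libraries reach 27 to 30.

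The CCl4 livers share no library with the oil comparison, so they give a second reading of the same genes. Of the 11 called genes other than Dpt, all 11 differed in the same direction between KO and WT after CCl4, with all 18 CCl4 libraries and with the 17 without WT CCl4 1. Over all genes 46.7% and 46.9% did so. Of the 11, 2 were called after CCl4 in both fits, Ifi202b and Gas5, where 0.013% of genes were called with 18 and 0.0173% with 17 libraries. With 17 libraries, 5 of the 11 had an unadjusted p under 0.05 in the same direction, against 2.65% of all genes. Ifi202b was higher in KO by 2.56 ± 0.33 (limma, adjusted p = 0.00329) and Gas5 lower by 1.37 ± 0.13 (adjusted p = 6.08e-05). Olfr1269 differed by -1.03 ± 0.17 (adjusted p = 0.0546), Dusp23 by -0.82 ± 0.15, and Dusp12 by -0.39 ± 0.14. The other 6 genes had smaller or less precise differences, such as 0.11 ± 0.14 for Rgs5 and -0.51 ± 0.61 for Serpinc1. Of the CCl4 libraries, WT CCl4 3 and KO CCl4 5 stood apart in hepatocyte signal. Their means over the 16 core hepatocyte genes were 7.60 and 7.47, against 9.82 to 10.23 in the others, and the skeletal muscle mean of WT CCl4 3 was 10.01. In a comparison added after this was seen, without these libraries and WT CCl4 1 (7 WT, 8 KO), all 11 genes kept their direction. Of the 11, 4 were called, where 0.0562% of all genes were, and 8 had an unadjusted p under 0.05. The called genes were Ifi202b (2.34 ± 0.26), Gas5 (-1.40 ± 0.14), Olfr1269 (-1.06 ± 0.17, adjusted p = 0.0183) and Dusp23 (-0.84 ± 0.15, adjusted p = 0.0449). Serpinc1 then read 9.98 to 10.61 in WT and 9.55 to 9.93 in KO, groups that did not overlap, and differed by -0.55 ± 0.10 (adjusted p = 0.065).

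Whether the genotype difference itself changed with CCl4 was tested as an interaction. With all 36 libraries limma called 0 genes. With 34 libraries, without KO 10 and WT CCl4 1, it called 1 gene (0.00432%), Dpt. Its genotype difference was larger after CCl4 by 2.52 on the log2 scale, at an interaction of -2.52 (adjusted p = 2.79e-05), where both libraries had been left out for their Dpt. With all 36 the Dpt interaction was -2.32 (adjusted p = 0.848). For the 11 other called genes no interaction passed in either fit.

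**Figure D5:**
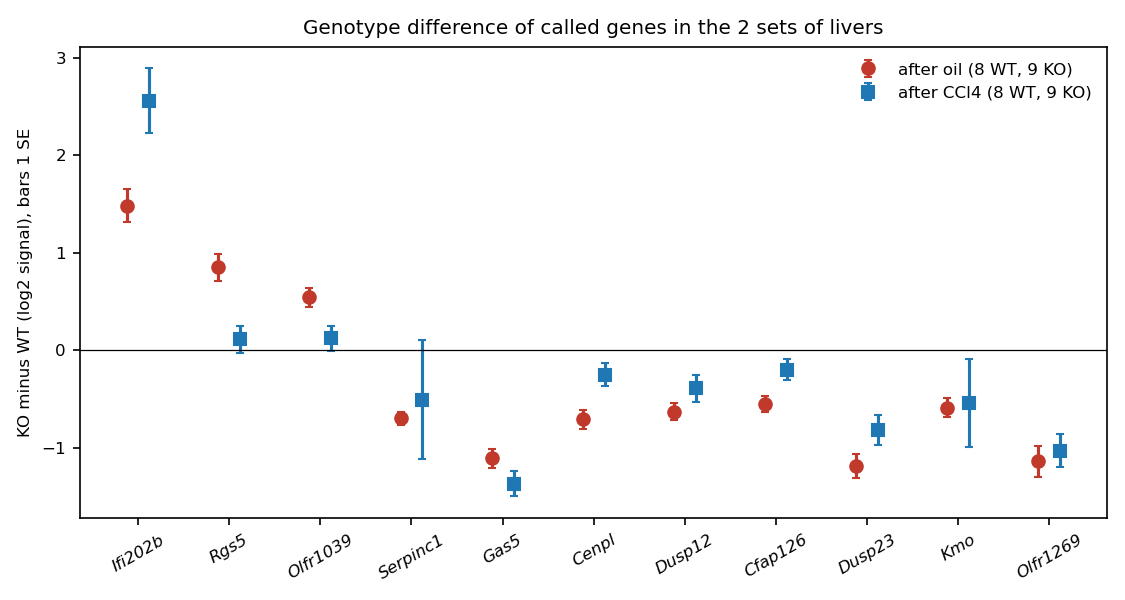
Difference in log2 signal, KO minus WT (y axis), of the 11 called genes other than Dpt (x axis), after oil (circles, 8 WT and 9 KO) and after CCl4 (squares, 8 WT and 9 KO, without WT CCl4 1). Bars are 1 SE from limma. All 11 pairs lie on the same side of 0, from 0.11 after CCl4 for Rgs5 to 2.56 for Ifi202b.

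The matrix that dermatopontin belongs to was then read in the same livers. A list of 8 genes holds its binding partners and related matrix and TGF-beta genes, such as decorin, fibronectin and type I collagen. It had 0 calls by limma in either fit and 0 at an unadjusted p under 0.05 without KO 10. The differences lay between -0.17 and 0.09 and their 95% intervals between -0.38 and 0.28. With KO 10 they lay between -0.06 and 0.46, with intervals from -0.55 to 1.22. Of 30 genes of collagens and other matrix proteins, 0 were called and 1 had an unadjusted p under 0.05 (3.33%), with a median difference of -0.03 and 95% intervals within -0.40 to 0.44. With KO 10 the median was 0.15. That gene was Lamc1, a laminin chain of basement membrane, at 0.21 (95% interval 0.03 to 0.40, adjusted p = 0.96). Fbln5, which organises elastic fibres, differed by -0.17. Of 13 small leucine-rich proteoglycans, the family of decorin, 0 were called, and keratocan (Kera) had the smallest p at -0.19. The 17 genes of collagen processing and crosslinking ran from -0.12 to 0.24, the highest being Crtap, a subunit of the collagen prolyl 3-hydroxylation complex. Among 16 matrix proteases and inhibitors 0 were called, and Mmp9 differed by 0.17.

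Genes of TGF-beta signalling gave 0 calls among 18 in limma, with 0 at an unadjusted p under 0.05 without KO 10 and 1 with it (5.56%). Tgfb1, the ligand most studied in liver fibrosis, was 5.43, 5.69 and 5.85 in WT and 5.17, 5.48 and 5.71 in KO 1 to 9. The groups overlapped, and the difference was -0.17 (95% interval -0.35 to 0.01, adjusted p = 0.96). KO 10 read 7.09. Thbs1, which encodes an activator of the latent ligand, differed by 0.09 (95% interval -0.09 to 0.28), and read 7.20 in KO 10 against 3.27 to 3.85 in the other oil libraries. The 95% intervals of the 18 genes lay within -0.48 to 0.48, and an adjusted p that misses the threshold does not show equal levels.

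The other cell type lists likewise had 0 calls by limma in either fit. Of the 18 genes of sinusoidal endothelium 3 had an unadjusted p under 0.05 (16.7%, against 4.58% of all genes). Among them were Fcgr2b, 6.16 Mb after Dpt, and Dnase1l3, a secreted nuclease (-0.20). Of 13 genes of vascular endothelium 1 did, Tek, the angiopoietin receptor (0.20). Macrophage genes (22) ran from -0.13 to 0.23 and Kupffer cell genes (11) from -0.18 to 0.18, with 0 at that limit without KO 10. With KO 10 all 22 macrophage differences were above 0, from 0.06 to 0.56 with a median of 0.19, and 1 had an unadjusted p under 0.05, the tetraspanin gene Cd9 (0.35). Of 13 neutrophil genes 1 passed it, S100a9, a calcium-binding alarmin (0.34). Of 10 genes of B and plasma cells 1 passed it, Cd79a of the B cell receptor (0.32), and of 14 genes of T and natural killer cells 2 did, in opposite directions, Prf1, the pore protein of killer cells (-0.26), and Cd4, the coreceptor of helper T cells (0.35). Interferon-induced genes outside the Ifi200 family had 1 of 24 (4.17%), the chemokine gene Cxcl10 (-0.32), and a median of -0.06. Of 8 mesothelial genes 2 had an unadjusted p under 0.05 (25.0%), and 0 did with KO 10. Among the 2 was Msln at -0.30, which with KO 10 was -0.10. In lists this short a few genes make up such shares.

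None of the genes on the hepatocyte lists was called in either fit. Core, pericentral and periportal hepatocyte genes (16, 19 and 17) had 0 calls in either fit and 0 at an unadjusted p under 0.05 without KO 10, with medians of -0.03, 0.07 and 0.03. Their 95% intervals reached from -0.73 to 0.44, from -0.81 to 0.88 and from -0.57 to 0.67. With KO 10 the medians were -0.04, -0.09 and -0.01. Of 20 genes of cholesterol synthesis 15 were lower in KO, where 11583 of all 23141 genes were. Their median was -0.14, with differences from -0.32 to 0.07. The list mean was 7.42 to 7.85 in WT and 6.99 to 7.92 in KO 1 to 9, lowest in KO 6 (6.99) and KO 7 (7.28). Among the 20 genes 1 had an unadjusted p under 0.05, Hsd17b7 (-0.32), which lies 5.15 Mb after Dpt. Of 15 targets of p53, 2 had an unadjusted p under 0.05 (13.3%, against 4.58% of all genes), both higher in KO. These were Cdkn1a, the cell cycle inhibitor p21, at 0.42 (95% interval 0.14 to 0.69, adjusted p = 0.96), and Mdm2, the ligase that degrades p53, at 0.30. Immediate early genes had a median of 0.15 over 21, with Zfp36, a protein that destabilises messenger RNAs, at 0.42. Genes of the unfolded protein response had a median of -0.04 over 21, and the chaperone gene Creld2 differed by -0.37 (adjusted p = 0.771).

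Genes that differ between male and female livers were spread by the libraries that express Y-linked genes. The 22 male-biased genes had a median difference of -0.20 and the 27 female-biased genes one of 0.17, with 0 calls in limma and 0 at an unadjusted p under 0.05 without KO 10. With KO 10 the medians were -0.41 and 0.11, and 1 male-biased gene had an unadjusted p under 0.05, Mup11. Mup11, a pheromone carrier secreted by male liver in particular, was 8.34, 9.43 and 11.21 in WT and 7.82, 8.38 and 10.74 in KO 1 to 9, with a difference of -0.85 (95% interval -1.75 to 0.06). KO 10 read 4.21, and with it the difference was -1.30 (95% interval -2.58 to -0.02, adjusted p = 0.967). Of the 8 WT libraries 3 express Y-linked genes and of KO 1 to 9 also 3, so their share was larger in WT, and the part of this in the medians was not tested here.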

How the data were processed

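Liver RNA was hybridised to Affymetrix mouse whole-transcript arrays, 1 array for each of the 36 libraries. The authors deposited log2 probe set values made with RMA, per the submitters' processing notes. For the RMA version and the genome build, the sources used here give nothing. Quantile normalization in RMA gives all arrays one distribution, so values are relative within an array. There is no read depth, and the number of arrays sets the precision. A further table with 36 columns that match no sample was not used. Of 269479 probe sets, 233753 name 1 gene symbol in the platform annotation, 5139 name several and 30587 none, and only the first were used. With 2208 symbols updated from RefSeq genes (GRCm38.p6, which places 23069 genes), each gene was valued as the mean of its probe sets (23141 genes, median 8 probe sets, 2317 genes with 1). Medians of the oil arrays lay between 4.11 and 4.29, the highest correlation of any pair of them was 0.9885, and 0 pairs were identical. No filter on low values was applied.

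Groups came from the titles alone. limma 3.58.1 (R 4.3.3) with lmFit and eBayes compared KO with WT across all genes, with Benjamini-Hochberg adjustment, and a gene with an adjusted p under 0.05 was called. "Rose" and "fell" are used of called genes only. Tests are two-sided, and differences are on the log2 scale, KO minus WT. The steps were tested on simulated data. The text names Dpt, up to 10 called genes in each direction per fit by size, genes with the smallest p where fewer than 5 were called, called genes within 20 Mb of Dpt, and the leading 2 or 3 members of each list. The members, 46 gene lists and alternatives were chosen with earlier results of these data known. Alternatives were the fit, the covariates, the summary of probe sets, filters, array weights, and leaving out libraries. Tables and the permutation test used Python 3.11.15 with numpy 2.4.6, pandas 2.3.3 and scipy 1.17.1.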

Additional observations from a re-analysis of the deposited data

Results flagged for a closer look

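A library was listed when it lay far from the rest of its group by Dixon's gap over range, which chance gives in about 1 in 20 groups. This was tried on 56 named genes and 7 list means in WT and in all 10 KO libraries, 126 values in all, and 32 were listed, 22 of them in KO 10.

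KO 10 was far above the other KO libraries in Dpt (7.40) and in genes of matrix and growth factor signalling. These were Tgfb1 (7.09), Thbs1 (7.20), the laminin gene Lamc1 (7.37), Crtap (7.80) and Mmp9 (5.12). It was also far above them in genes of immune cells, S100a9 (4.46), Fcer1g (9.29) and Ifi204 (4.89), and in Msln (5.61), Cdkn1a (6.90), Creld2 (8.16), Rgs4 (5.09) and Gas5 (6.41). It was far below them in Mup11 (4.21). Its list means were high for binding partners of dermatopontin (9.43), matrix (7.03), macrophages (7.80), skeletal muscle (6.30) and mesothelium (5.86). They were low for pericentral hepatocytes (6.63) and bile acid genes (7.20).

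Among the other KO libraries, Apoa2 was low in KO 7 (10.62) and Ifi208 high in KO 2 (2.88). In WT, Ifi202b was high in WT 6 (2.83) and Ifi213 in WT 5 (4.16). Low values in WT were Kmo in WT 4 (8.57), Kcnj10 in WT 3 (4.04), Ifi209 in WT 2 (3.58), Ifi211 in WT 3 (2.32), Igfbp1 in WT 2 (6.87) and the mean of the pericentral list in WT 1 (7.54).

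The genotype difference of Dpt changed with CCl4 by -2.52 in the interaction test with 34 libraries. Both libraries left out of that fit were left out for their Dpt.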

How the results depend on the processing

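The number of called genes was 9 with 18 libraries and 12 with 17. Without the 6 libraries that express Y-linked genes it was 4 and 7, with fewer libraries in the fit. With array weights it was 15 with 18 libraries. Leaving out 1 library at a time gave 9 to 12 genes from 18 libraries, with 12 without KO 3 or KO 10, and 9 to 14 from 17. With probe sets in place of gene means, an alternative added after seeing the data, 30 genes had a called probe set. With the brightest probe set of each gene, 18 libraries gave a difference of 0.01 for Gas5, -0.12 for Kcnj10, -0.11 for Psg19, 0.03 for Fcgr2b, -0.09 for Lamc1 and 0.25 for Tgfb1, each opposite in sign to the mean over probe sets. With the median of probe sets Tgfb1 gave 0.17, and leaving out single libraries gave it values up to 0.04, from 0.00, or -0.17 without KO 10. The median of probe sets also called Apoa2 and Fcgr2b, with 17 and with 18 libraries. The cause of these changes was not tested. Of 1605 values of named genes under other settings, 1590 kept their direction. Of 1288 list medians 44 moved by more than the spread of WT and KO libraries. Ifi202b and Olfr1269 were called under every setting tried that gave them a value. Olfr1269 has 1 probe set, so the median and the brightest probe set could not change its values. Psg19 passed without KO 5 (0.67, adjusted p = 0.0497 in limma), Atf6 without WT 8 (-0.46, adjusted p = 0.0368) and Ifi203-ps without KO 3 (-0.80, adjusted p = 0.0176), all from 18 libraries. Libraries with the same replicate number share only that number. The correlations of their deviations ran from -0.14 to 0.33, with 5 of 8 pairs over 0.1 and 2 of 8 libraries best correlated with their own number. With the number as a block 11 genes were called in each fit, without Rgs5 with 18 libraries (0.83, adjusted p = 0.149) and with Ifi204 (-0.91, adjusted p = 0.0338).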
